A study of Brassica napus with 18 samples.

Results

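Glutamine synthetase joins ammonium to glutamate to make glutamine, and the genes for it were followed in the aerial part of Brassica napus (oilseed rape) under salt. Every gene of the deposited table whose Swiss-Prot description contains "Glutamine synthetase" was taken, which gave 34 genes of 108207, 16 with an A chromosome and 18 with a C chromosome in their identifier. By Swiss-Prot name 7 matched the chloroplastic enzyme GLN2, 2 matched the cytosolic isozyme GLN1-1, 3 GLN1-2, 7 GLN1-3, 4 GLN1-4 and 4 GLN1-5. A further 5 matched a rice GLN1-1 entry, 1 matched a Lotus cytosolic entry and 1 a pea nodule isozyme. A second description in the table calls the Lotus match, BnaC04G0386000ZS, a cytosolic isozyme 1-1. Wild type (WT) and a bnagrp3 mutant, of which 1 line (#2) was used, were grown in Hoagland solution for 3 weeks and sampled as mock or after 4 h or 8 h with 200 mM NaCl added, with 3 libraries of poly(A) RNA in each of the 6 groups. BnaGRP3 is a glycine-rich protein gene, and the study asked which pathways it acts in under salt. The sources used here give neither the kind of mutation nor the copies that carry it.

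In plant leaves the plastid enzyme GLN2 takes up the ammonium released by photorespiration and by nitrite reduction, and glutamate synthase (GOGAT) returns the glutamate. The cytosolic GLN1 enzymes are known from vascular tissue, where they make glutamine for export, and from senescing leaves, where they collect nitrogen from protein breakdown. In Arabidopsis GLN1-1 and GLN1-4 have a high affinity for ammonium, and GLN1-2 and GLN1-3 a low affinity.

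The values are TPM, transcript abundances scaled per length and to a common library total, so levels can be compared between genes while read depth is lost. Depth is therefore unknown, and precision was judged from the spread between libraries. Labels do not say that replicates are separate plants, so p-values reflect the spread of these libraries alone, and that spread could be technical. The mock columns carry the heading 0 h, and salt libraries thus lack a mock of their own time of day. B. napus carries related A and C copies of most genes, and how reads shared by near-identical copies were divided is not stated, so values of single copies are uncertain to that extent. In bulk tissue, fewer cells of a type and less RNA per cell cannot be told apart.

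The WT libraries were not alike in genotype-linked transcripts. A set of 326 genes, none of them a glutamine synthetase, was at 5 TPM or more in all 9 bnagrp3 libraries and at 0.2 TPM or less in at least 2 of the 9 WT libraries. Set against the mean of the bnagrp3 libraries under that treatment, the median level of this set was 0.214 to 0.254 in the WT mock libraries. It was 0, 0.670 and 0.233 in WT replicates 1 to 3 at 4 h, and 0.168, 0 and 0.369 at 8 h. In the 9 bnagrp3 libraries the ratio was 0.977 to 1.02, near 1 because their own means are the divisor. The rule also asked for low values in at least 2 WT libraries, so low ratios in some WT libraries were built in. WT replicate 2 at 4 h and WT replicate 3 at 8 h had the highest ratios of the salt-treated WT libraries, and calls of members that changed without them are given beside the result.

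Of the 34 genes, 24 reached 1 TPM in at least 3 of the 18 libraries and were tested, and 16 had a mean of 10 TPM or more. The other 10 never exceeded 0.7 TPM. Among these 10, 7 were listed at 0 in every library, namely the 5 rice matches, the GLN1-3 gene BnaC08G0500300ZS and the GLN1-5 gene BnaC05G0312600ZS, and none of the GLN1-5 genes was tested.

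Most glutamine synthetase transcript came from the plastid genes, and their part shrank under salt. In WT mock the summed level of all members was 2654 ± 142 TPM (mean ± SD, n = 3 here and below), of which GLN2 made up 2052 ± 126 TPM. At 4 h the WT sum was 2357 ± 167 TPM and at 8 h 1657 ± 127 TPM. GLN2 accounted for 1533 ± 86.2 TPM and then 1098 ± 123 TPM of these sums. The 27 genes of the other names therefore held 22.7 ± 0.64% of the sum in WT mock, 34.8 ± 3.92% at 4 h and 33.9 ± 2.36% at 8 h. In bnagrp3 the sums were 2575 ± 36.4, 2370 ± 43.1 and 1574 ± 53.9 TPM, with 25.3 ± 1.97%, 37.3 ± 1.56% and 35.6 ± 1.08% outside GLN2. The genes outside GLN2 summed to 603 ± 16.3 TPM in WT mock, 824 ± 140 at 4 h and 560 ± 15.1 at 8 h. In bnagrp3 they summed to 652 ± 57.5, 885 ± 46.5 and 560.5 ± 15.7 TPM. In each genotype every 8 h library lay below every mock library in this non-GLN2 sum. The 3 mock libraries of each genotype lay below all 6 of its salt libraries in the non-GLN2 percentage. No test was made on these sums.

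**Figure D1:**
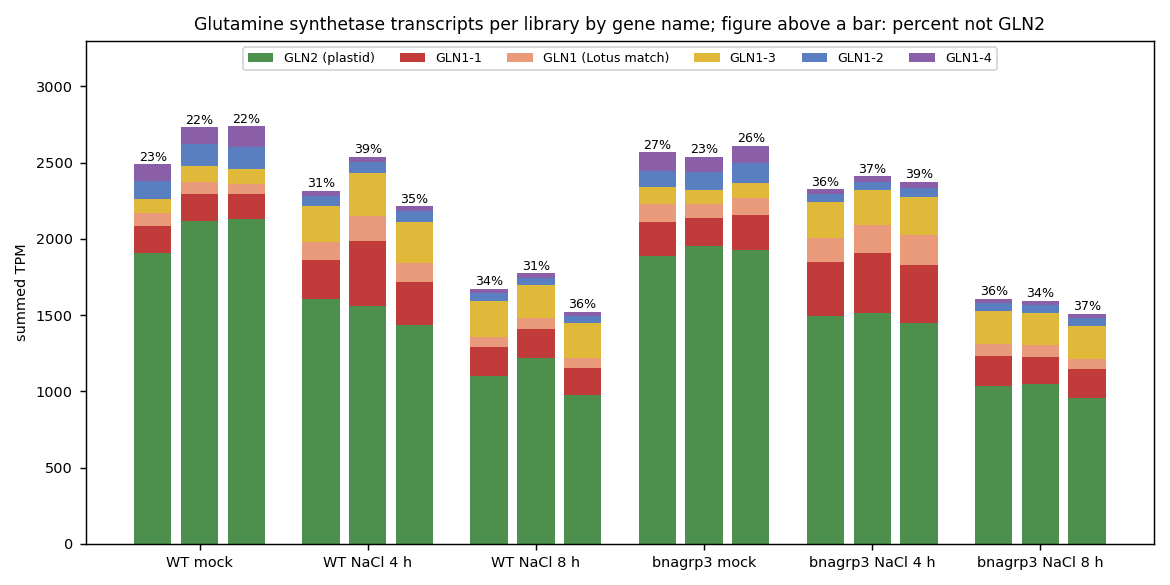
Summed TPM of the glutamine synthetase genes (vertical axis) in each of the 18 libraries, stacked by Swiss-Prot name, with the percentage that is not GLN2 above each bar; the tested pea nodule match is too low to show. GLN2 is the tallest block in every library, and the non-GLN2 percentage is 22 to 27 in mock and 31 to 39 under NaCl.

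The level of single genes ran over more than an order of magnitude. In WT mock the GLN2 genes BnaC04G0369400ZS and BnaA04G0089200ZS stood highest, at 655 ± 46.0 and 573 ± 45.7 TPM, and their libraries overlapped. The GLN2 genes BnaA04G0089100ZS, BnaA08G0077600ZS and BnaC08G0109700ZS followed at 369 ± 18.3, 270.3 ± 18.4 and 164 ± 8.65 TPM, each separate from the next. The highest cytosolic gene was GLN1-1 BnaC04G0378100ZS, at 122 ± 2.76 TPM, above every other cytosolic gene in all 3 libraries. Next came GLN1-2 BnaA02G0159900ZS at 85.0 ± 12.3 and the Lotus match BnaC04G0386000ZS at 78.6 ± 8.49 TPM, which overlapped. Below them, GLN1-3 BnaC05G0425500ZS, GLN1-2 BnaC02G0204200ZS, GLN1-1 BnaA04G0096800ZS and GLN1-4 BnaC02G0075000ZS, from 61.2 ± 5.54 down to 42.6 ± 6.82 TPM, overlapped each with its neighbour. The GLN1-4 genes BnaA02G0065000ZS, BnaA10G0200900ZS and BnaC09G0498800ZS, from 27.9 ± 4.44 down to 20.1 ± 2.13 TPM, also overlapped in this way. GLN1-3 BnaC03G0426200ZS, GLN1-3 BnaA05G0381200ZS and GLN2 BnaC07G0129700ZS were lower and separate, at 17.4 ± 0.664, 15.0 ± 1.12 and 12.6 ± 0.306 TPM.

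**Figure D2:**
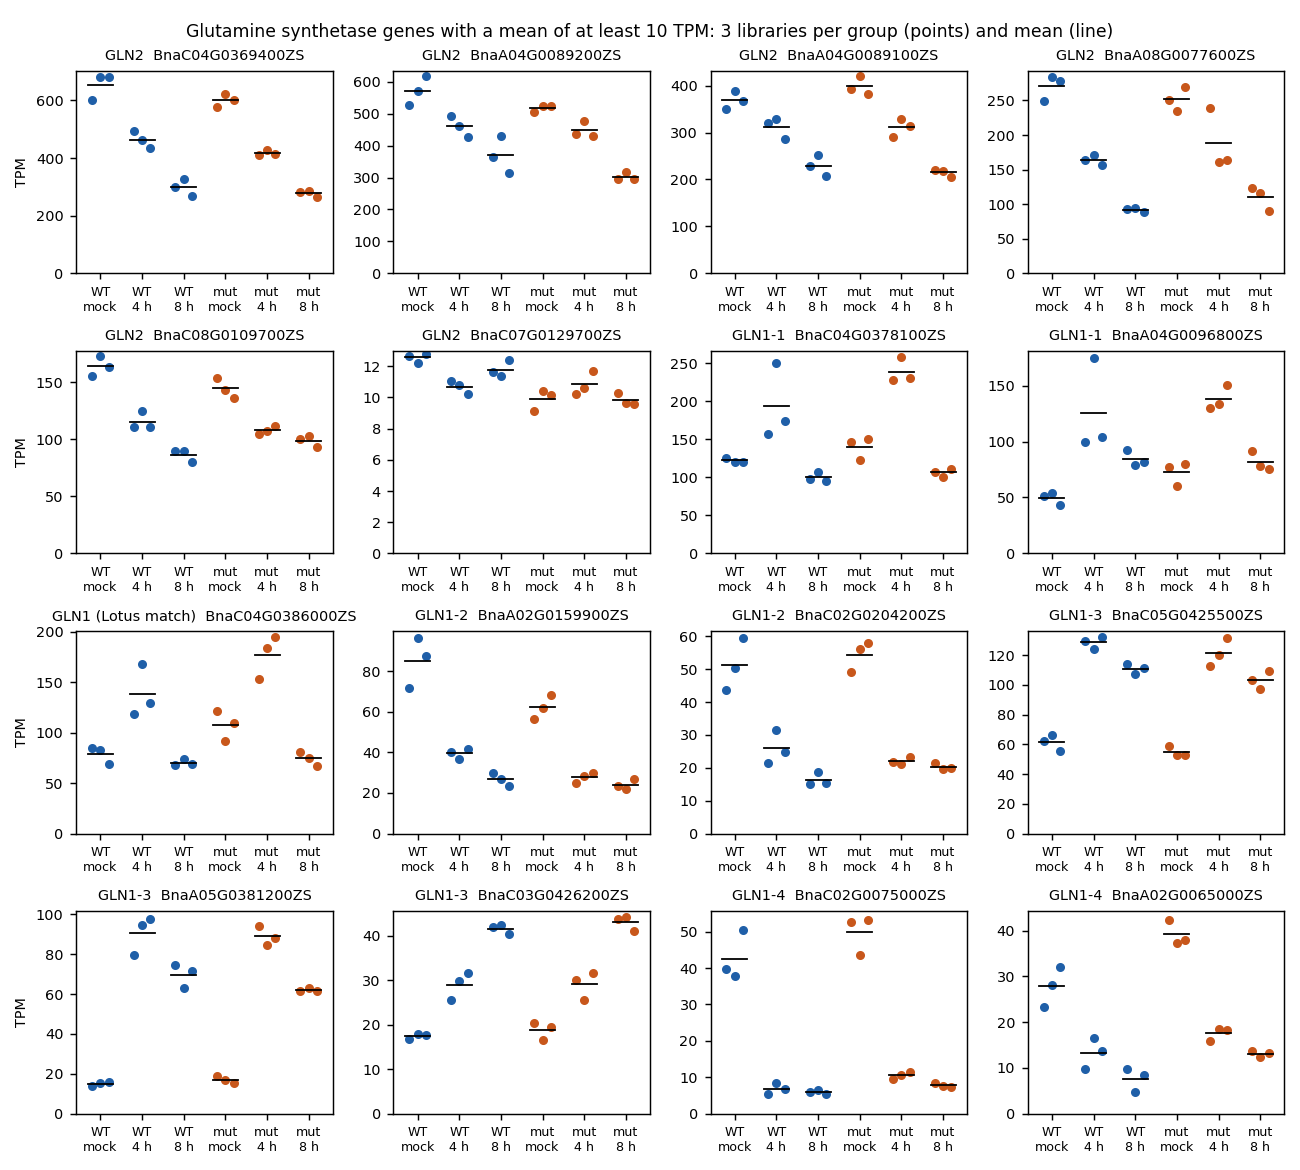
TPM (vertical axes, each from 0) of the 16 genes with a mean of at least 10 TPM, by group; points are the 3 libraries, lines their mean, blue is WT and orange bnagrp3 (mut). GLN2 panels other than BnaC07G0129700ZS step down from mock to 8 h, the GLN1-1 panels and the Lotus match peak at 4 h, the 3 GLN1-3 genes shown stay above mock at 8 h, and GLN1-2 and GLN1-4 drop by 4 h.

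Salt moved the members in both directions, and genes of a Swiss-Prot name mostly moved alike. All genes were fitted together with limma on log2(TPM + 1), where the added 1 shrinks changes at low levels, and a gene was called at a Benjamini-Hochberg adjusted p under 0.05. All fold changes given are log2 differences on that scale. In WT at 4 h, 8 of the 24 tested members were higher than in mock and 13 were lower, while of all 57923 tested genes 26% were higher and 20.5% lower. In WT at 8 h 6 were higher and 11 lower (29% and 17.3% of all genes). In bnagrp3 7 were higher and 10 lower at 4 h (28.7% and 23.5%), and 5 were higher and 13 lower at 8 h (31.3% and 18.4%). The median fold change of the tested members was -0.40 and -0.46 in WT at 4 h and 8 h, and -0.28 and -0.45 in bnagrp3, beside 0.05, 0.14, 0.06 and 0.14 over all tested genes. The 4 h and 8 h comparisons of a genotype share its mock libraries. Rescaling the libraries by median-of-ratios shifted the median of all genes at 8 h from 0.14 to 0.01 in both genotypes. It left 12760 genes higher among 25417 called in WT at 8 h, where 16786 were higher and 10040 lower without rescaling, and 13792 higher among 27539 in bnagrp3, where 18118 were higher and 10664 lower.

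GLN2 transcripts fell. In WT the 5 abundant GLN2 genes were called lower at both times, and in bnagrp3 they were called lower at both times except BnaA04G0089200ZS at 4 h. The highest, BnaC04G0369400ZS, was at 602, 683 and 680.0 TPM in the WT mock libraries, at 492, 462 and 437 at 4 h and at 301, 327 and 269 at 8 h. In bnagrp3 it was at 576, 621 and 603 TPM in mock, 410.4, 428 and 415 at 4 h and 283, 284 and 264 at 8 h. No library of one time overlapped those of the next in either genotype. The WT fold change was -0.50 (SE 0.08, adjusted p = 1.04e-04) at 4 h and -1.13 (SE 0.08, adjusted p = 2.52e-08) at 8 h, and that of bnagrp3 was -0.52 (adjusted p = 5.04e-05) and -1.11 (adjusted p = 2.83e-08).

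The steepest fall of the plastid genes in WT, at both times, and in bnagrp3 at 8 h was that of BnaA08G0077600ZS, while in bnagrp3 at 4 h BnaC04G0369400ZS fell more. Its WT libraries held 249, 283 and 278 TPM in mock, 164, 170.4 and 157 at 4 h and 93.0, 94.9 and 88.2 at 8 h. Those of bnagrp3 held 250.5, 235 and 269.8, then 239, 161 and 164, then 123, 116 and 90.4 TPM. The bnagrp3 4 h replicate 1 lay inside its mock range, and the other groups of a genotype did not overlap. Fold changes were -0.72 and -1.54 in WT (adjusted p = 5.85e-04 and 3.90e-07) and -0.44 and -1.20 in bnagrp3 (adjusted p = 0.0143 and 4.67e-06), and the bnagrp3 4 h call was lost without any 1 of 3 libraries (adjusted p = 0.0552 to 0.0728).

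BnaA04G0089200ZS fell less. It was at 528, 571 and 619 TPM in WT mock, 494, 461 and 428 at 4 h and 364, 431 and 314 at 8 h, and the 4 h and 8 h libraries overlapped. The mutant held 504, 525 and 525, 437, 479 and 431 and 296, 316 and 296 TPM, with all 3 times separate. The WT fold changes were -0.31 (adjusted p = 0.0181) and -0.64 (adjusted p = 9.25e-05), and the bnagrp3 ones -0.21 (adjusted p = 0.0953, called after rescaling at 0.0311 and without WT replicate 2 or 3 at 8 h at 0.0433 and 0.0487) and -0.77 (adjusted p = 1.42e-05). Its neighbour by identifier, BnaA04G0089100ZS, was at 351, 387 and 368 TPM in WT mock, 319.7, 329.8 and 285 at 4 h and 229, 253 and 207 at 8 h, with all times separate (-0.24 and -0.69, adjusted p = 0.0258 and 8.95e-06). The WT 4 h calls of these A04 genes were each lost when 1 of 2 or 3 single libraries was left out (adjusted p = 0.0584 to 0.121).

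BnaC08G0109700ZS was at 156, 173 and 163 TPM in WT mock, 111, 125 and 111 at 4 h and 89.9, 90.2 and 79.9 at 8 h. In bnagrp3 it was at 154, 144 and 136, 105, 108 and 112 and 99.9, 103 and 93.2 TPM. Times were separate in both genotypes, and the fold change at 8 h was -0.91 in WT (adjusted p = 1.52e-07) and -0.55 in bnagrp3 (adjusted p = 2.47e-05). The 2 weak GLN2 genes did not share this pattern. BnaC07G0129700ZS ranged from 9.14 to 12.8 TPM over all 18 libraries, and among the salt comparisons only that of WT at 4 h was called (-0.22 (SE 0.07, adjusted p = 0.0226)), a call lost without any 1 of 3 libraries (adjusted p = 0.0516 to 0.083). BnaC09G0241600ZS was at 7.83, 8.88 and 7.87 TPM in WT mock, 11.01, 1.50 and 8.48 at 4 h and 9.98, 12.9 and 5.49 at 8 h, with overlapping groups and no call in either salt comparison. Without WT replicate 2 at 4 h and replicate 3 at 8 h it was called higher in WT at 8 h than in mock (0.43, adjusted p = 0.0125, in place of 0.12 and 0.847).

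Both GLN1-1 genes rose at 4 h in both genotypes, and at 8 h 1 of them was above mock in WT and the other below mock in bnagrp3. BnaC04G0378100ZS was at 125, 120.4 and 121 TPM in WT mock, 157, 250.1 and 174 at 4 h and 97.6, 107 and 95.4 at 8 h. The bnagrp3 libraries stood at 147, 123 and 151 TPM, then 228, 258 and 231, then 107, 101 and 112. The 4 h libraries were the highest of each genotype, and the 8 h libraries lay below every mock library. The 4 h fold change was 0.63 (SE 0.13, adjusted p = 0.00126) in WT and 0.77 (SE 0.13, adjusted p = 1.98e-04) in bnagrp3. At 8 h it was -0.29 in WT, not called (adjusted p = 0.0933, but 0.0162 after rescaling and 0.0122 without WT replicate 2 at 4 h), and -0.39 in bnagrp3 (adjusted p = 0.0262), which was not called without any 1 of 4 libraries (adjusted p = 0.0558 to 0.0954).

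The second GLN1-1 gene, BnaA04G0096800ZS, was at 51.4, 53.8 and 43.1 TPM in WT mock, 99.2, 175 and 104 at 4 h and 92.8, 78.7 and 81.7 at 8 h. Its bnagrp3 libraries held 77.4, 60.3 and 80.3, 130.2, 134 and 151 and 91.1, 78.4 and 75.2 TPM. In WT all salt libraries lay above mock (1.29 and 0.76, adjusted p = 3.65e-05 and 0.00285), while in bnagrp3 those at 4 h did (0.93, adjusted p = 5.16e-04) and those at 8 h overlapped mock (adjusted p = 0.468). The Lotus match BnaC04G0386000ZS was at 84.7, 82.3 and 68.9 TPM in WT mock, 118, 168 and 129 at 4 h and 68.0, 73.3 and 69.0 at 8 h. In bnagrp3 it was at 121, 91.4 and 109, 153, 184 and 194 and 80.9, 75.0 and 67.3 TPM. It rose at 4 h in both genotypes (0.80 and 0.72, adjusted p = 2.80e-04 and 5.35e-04) and was lower than mock at 8 h in bnagrp3 (-0.52, adjusted p = 0.00643). WT replicate 2 was the highest of the 3 WT libraries at 4 h for each of these 3 genes, and it is also the one with the bnagrp3-type ratio of 0.670. Left out, it changed none of the 3 WT 4 h calls.

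Of the 7 GLN1-3 genes 6 were tested, and the 3 abundant ones were called higher in all 4 salt comparisons. BnaA05G0381200ZS was at 13.8, 15.4 and 15.9 TPM in WT mock, 79.5, 94.5 and 97.5 at 4 h and 74.7, 63.1 and 71.4 at 8 h. Values in the mutant were 18.7, 16.7 and 15.4, 94.4, 84.5 and 88.3 and 61.6, 62.9 and 61.5 TPM. Every salt library lay above every mock library, with a fold change of 2.51 (SE 0.09, adjusted p = 4.36e-11) in WT and 2.33 (SE 0.09, adjusted p = 9.29e-11) in bnagrp3 at 4 h, and of 2.14 and 1.82 at 8 h (adjusted p = 2.39e-10 and 1.34e-09). From a level near the bottom of the 16 abundant genes it passed GLN1-2 and GLN1-4.

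BnaC05G0425500ZS, the most abundant GLN1-3 gene, was at 62.4, 66.1 and 55.2 TPM in WT mock, 129.7, 124 and 132 at 4 h and 114, 107 and 111 at 8 h. In bnagrp3 it was at 58.9, 52.5 and 52.7, 113, 120.1 and 132 and 103, 97.2 and 109 TPM. Mock and salt libraries were separate in each genotype (1.06 in WT and 1.14 in bnagrp3 at 4 h, adjusted p = 7.40e-08 and 3.02e-08). BnaC03G0426200ZS rose in steps, from 16.7, 17.9 and 17.8 TPM in WT mock to 25.5, 29.9 and 31.6 at 4 h and 41.9, 42.4 and 40.4 at 8 h. In bnagrp3 the steps were 20.3, 16.6 and 19.4, 30.1, 25.6 and 31.5 and 43.8, 44.1 and 41.1 TPM. The 3 times were separate in both genotypes, and the 8 h fold change was 1.21 and 1.16 (adjusted p = 1.07e-07 and 1.59e-07).

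The other tested GLN1-3 genes were weak. BnaC01G0409900ZS stayed between 0.850 to 3.37 TPM and was lower in WT at 4 h than in mock (-0.58 (SE 0.18, adjusted p = 0.0168)), a call lost without 1 of 2 libraries (adjusted p = 0.0741 and 0.0886). BnaA03G0351300ZS was listed at 0 in WT mock, at 4.07, 30.9 and 6.99 TPM in WT at 4 h, at 4.43, 0 and 4.66 in WT at 8 h, and in bnagrp3 at 8.34, 0 and 0 in mock, 0 in all libraries at 4 h and 4.88, 4.66 and 0 at 8 h. Its WT 4 h libraries were all above the WT mock libraries (adjusted p = 0.00774), and no fold is given against a group listed at 0. The gene was at 0 in 10 of the 18 libraries. Its call, counted among the higher members above, thus rests on a group without spread, and no support is drawn from it. BnaA01G0331500ZS was above 0 in 4 libraries, 1 of WT mock, 1 of bnagrp3 mock and 2 of bnagrp3 at 8 h, the highest at 12.8 TPM, and was called in no comparison.

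GLN1-2 and GLN1-4 transcripts fell by 4 h and were low at 8 h. GLN1-2 BnaA02G0159900ZS was at 71.7, 96.0 and 87.4 TPM in WT mock, 40.3, 36.5 and 41.8 at 4 h and 29.9, 26.9 and 23.5 at 8 h. Mutant libraries were at 56.3, 61.8 and 68.5, 25.1, 28.2 and 29.7 and 23.3, 21.9 and 26.8 TPM. Mock was separate from both salt times, with fold changes of -1.08 and -1.63 in WT (adjusted p = 4.84e-06 and 6.42e-08) and of -1.14 and -1.34 in bnagrp3 (adjusted p = 2.04e-06 and 4.61e-07).

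GLN1-2 BnaC02G0204200ZS was at 43.8, 50.4 and 59.4 TPM in WT mock, 21.4, 31.6 and 24.9 at 4 h and 15.0, 18.9 and 15.2 at 8 h, and in bnagrp3 at 49.1, 56.1 and 58.0, 21.8, 21.3 and 23.3 and 21.5, 19.6 and 20.0 TPM. Mock was again separate from salt, with -1.58 in WT and -1.37 in bnagrp3 at 8 h (adjusted p = 2.62e-07 and 1.08e-06). The third GLN1-2 gene went the other way. BnaA07G0108800ZS was at 1.69, 2.05 and 1.51 TPM in WT mock, 3.57, 3.96 and 2.90 at 4 h and 4.76, 4.63 and 4.31 at 8 h, with all times separate, and was called higher in all 4 salt comparisons (0.70, 1.02, 0.79 and 1.13 in WT at 4 h and 8 h and bnagrp3 at 4 h and 8 h, adjusted p = 1.03e-05 in WT at 8 h).

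The largest falls were among the GLN1-4 genes, of which all 4 were called lower in all 4 salt comparisons. BnaC02G0075000ZS was at 39.6, 37.7 and 50.4 TPM in WT mock, 5.54, 8.34 and 6.83 at 4 h and 5.85, 6.42 and 5.50 at 8 h. In bnagrp3 it was at 52.6, 43.6 and 53.3, 9.45, 10.7 and 11.6 and 8.35, 7.64 and 7.40 TPM. The lowest mock library was above the highest salt library by a wide margin in each genotype (-2.47 (SE 0.14, adjusted p = 2.45e-09) in WT and -2.13 (SE 0.14, adjusted p = 9.78e-09) in bnagrp3 at 4 h). As mean TPM the WT level at 8 h was 7.18-fold below mock.

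BnaC09G0498800ZS was at 18.6, 19.1 and 22.5 TPM in WT mock, 4.61, 4.30 and 3.64 at 4 h and 5.39, 3.83 and 3.61 at 8 h, and in bnagrp3 at 17.9, 14.1 and 16.7, 3.70, 3.28 and 4.87 and 6.59, 5.76 and 3.51 TPM. Its salt libraries lay below its mock libraries in both genotypes (-2.02 and -1.81 at 4 h, adjusted p = 5.78e-07 and 1.36e-06). BnaA02G0065000ZS was at 23.3, 28.2 and 32.2 TPM in WT mock, 9.74, 16.5 and 13.7 at 4 h and 9.73, 4.75 and 8.52 at 8 h, and in bnagrp3 at 42.4, 37.3 and 38.0, 16.0, 18.6 and 18.2 and 13.6, 12.5 and 13.3 TPM, again with mock above salt (-1.77 and -1.51 at 8 h, adjusted p = 5.84e-06 and 2.62e-05). BnaA10G0200900ZS was at 27.4, 21.3 and 27.2 TPM in WT mock, 10.96, 3.89 and 5.69 at 4 h and 7.91, 12.8 and 7.23 at 8 h. In the mutant the gene stood at 7.05, 6.03 and 6.19, 1.08, 1.54 and 2.16 and 2.65, 2.20 and 2.03 TPM. Salt libraries were below mock in each genotype (-1.84 and -1.54 at 4 h, adjusted p = 5.87e-05 and 2.22e-04).

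The pea nodule match, BnaA03G0181000ZS, was weak, at 0.970 to 1.74 TPM in mock and 1.58 to 3.56 TPM at 8 h. It was called higher at 8 h in bnagrp3 (0.60 (SE 0.17, adjusted p = 0.00783)) and in WT (0.45 (SE 0.17, adjusted p = 0.0404)), where the call was lost without any 1 of 4 libraries (adjusted p = 0.0794 to 0.158) and under rescaling (0.11).

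**Figure D3:**
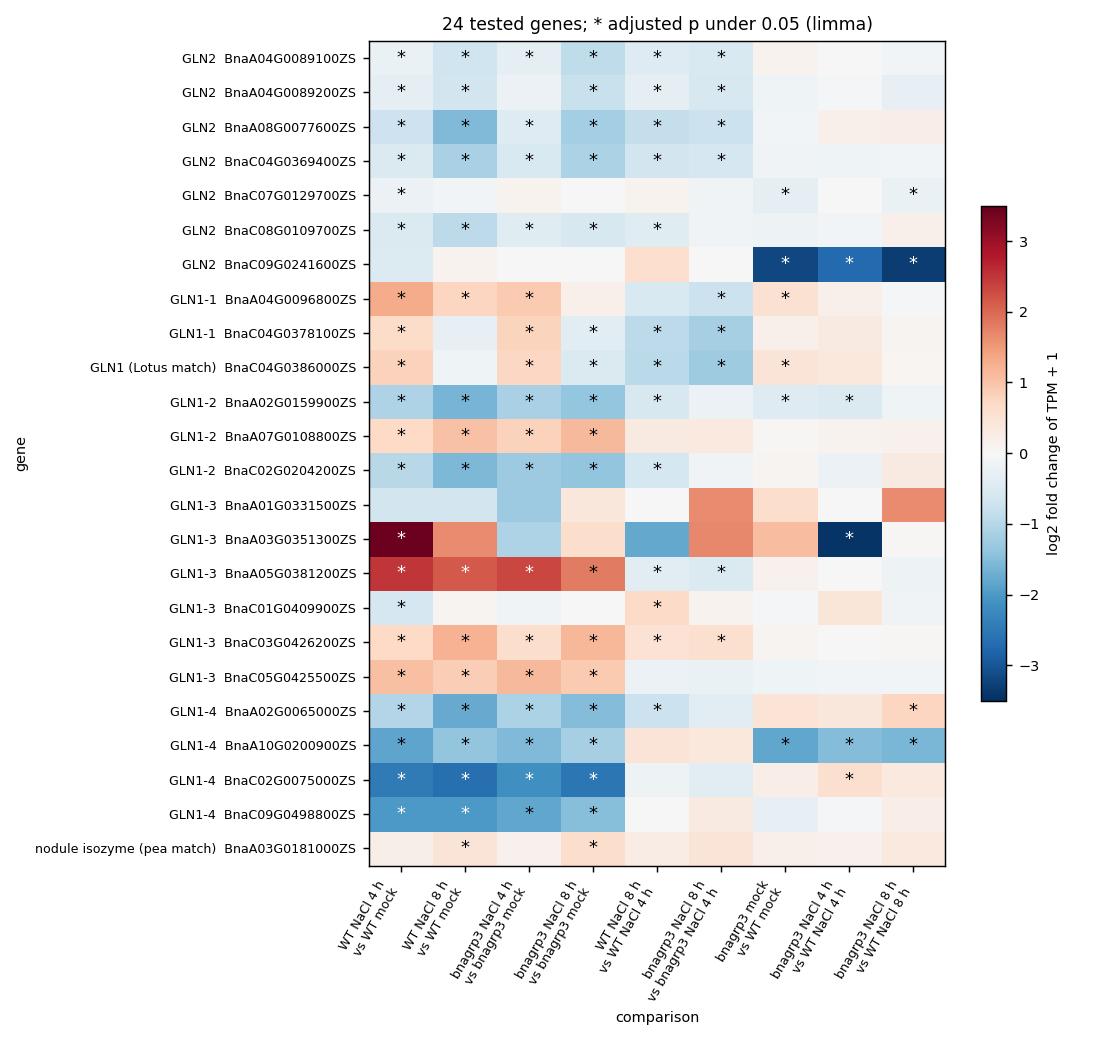
Log2 fold change of TPM + 1 (colour, red higher and blue lower) of the 24 tested genes (rows) in 9 comparisons (columns); an asterisk marks an adjusted p under 0.05. GLN2 and GLN1-4 rows are mostly blue in the 4 salt columns and the GLN1-1 rows at 4 h and 3 of the GLN1-3 rows red; the dark cells of BnaC09G0241600ZS and BnaA03G0351300ZS are fitted against groups at or near 0 and depend on the added 1 TPM.

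More members fell than rose between 4 h and 8 h, and many were not called. In WT 2 were higher at 8 h than at 4 h and 11 lower, and 11 were not called, beside 8.99% higher and 5.75% lower of all tested genes. In bnagrp3 1 was higher, 8 were lower and 15 were not called, beside 10.3% and 5.05%. The deepest called declines belonged to the Lotus match BnaC04G0386000ZS (-0.96 (SE 0.14, adjusted p = 5.72e-04) in WT and -1.24 in bnagrp3, adjusted p = 1.08e-04) and GLN1-1 BnaC04G0378100ZS (-0.92 and -1.16, adjusted p = 5.38e-04 and 1.21e-04). GLN1-3 BnaC03G0426200ZS was the member higher at 8 h in both genotypes (0.51 and 0.55, adjusted p = 0.00279 and 0.00170). GLN2 genes lower at 8 h than at 4 h numbered 5 of 7 in WT and 4 of 7 in bnagrp3, with medians of -0.41 and -0.53. After rescaling, 3572 of 7864 called genes were higher in WT, where 5209 were higher and 3332 lower without it, and 3531 of 7752 in bnagrp3, where 5940 were higher and 2923 lower. In WT the lower count of members was 7 without replicate 2 at 4 h and replicate 3 at 8 h, where BnaA02G0065000ZS, BnaA04G0089200ZS, BnaA05G0381200ZS and BnaC02G0204200ZS were not called (adjusted p = 0.0787 to 0.223), nor was the higher BnaC01G0409900ZS (0.102). In bnagrp3 BnaC02G0075000ZS was then called lower (-0.39, adjusted p = 0.0439 in place of 0.0668). The WT lower count was 3, with 0 WT members higher, when only the compared groups were fitted.

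Members called between the genotypes are read against the share of all genes called, which was of like size. Without salt 2 were higher and 4 lower in bnagrp3 than in WT (9.1% and 12.4% of all tested genes), at 4 h 1 was higher and 4 lower (9.89% and 13.7%), and at 8 h 1 was higher and 3 lower (11.4% and 12%). One of the lower genes in each treatment, BnaC09G0241600ZS, passed the filter through WT alone and had to differ. GLN1-4 BnaA10G0200900ZS was lower in the mutant in every treatment, with all 3 bnagrp3 libraries below all 3 WT libraries of the same treatment. Its fold change was -1.82 (SE 0.27, adjusted p = 2.52e-04) in mock, -1.52 (SE 0.27, adjusted p = 9.58e-04) at 4 h and -1.61 (SE 0.27, adjusted p = 5.55e-04) at 8 h. At 4 h the adjusted p was 0.054 when only the 6 libraries compared were fitted.

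GLN2 BnaC09G0241600ZS was listed at 0 in 8 of the 9 bnagrp3 libraries and at 0.03 TPM in the other, and at 1.50 to 12.9 TPM in the 9 WT libraries. No support is drawn from its calls, with an adjusted p of 8.12e-05, 2.81e-04 and 4.40e-05 in mock, at 4 h and at 8 h. In WT mock, with bnagrp3-type ratios of 0.214 to 0.254, its highest level, 8.88 TPM, was at the highest ratio. Within each salt time its WT level was lower where the ratio was higher. At 4 h it was 11.01 TPM in the library with a ratio of 0 and 1.50 TPM in the one with 0.670, and at 8 h it was 12.9 TPM at a ratio of 0 and 5.49 TPM at 0.369. BnaA10G0200900ZS was likewise highest where the ratio was 0 (10.96 TPM at 4 h, 12.8 TPM at 8 h) and lowest where it was highest (3.89 and 7.23 TPM). The calls of BnaA10G0200900ZS were kept in all 3 treatments without WT replicate 2 at 4 h and replicate 3 at 8 h. The part of the ratio in the genotype differences was not tested.

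GLN1-4 BnaA02G0065000ZS stood higher in bnagrp3 at 8 h (0.75 (SE 0.21, adjusted p = 0.0154)), where the 3 WT libraries were at 4.75 to 9.73 TPM and the 3 mutant libraries at 12.5 to 13.6 TPM. The lowest WT value belonged to replicate 2, with a ratio of 0, and without it the adjusted p was 0.0732. With only the compared groups fitted it was 0.0828. In mock this gene was also higher in all bnagrp3 libraries (37.3 to 42.4 TPM) than in WT (23.3 to 32.2 TPM), but was not called (0.49, adjusted p = 0.11). That mock difference was called without WT replicate 2 at 8 h (0.036). At 4 h the genotypes overlapped. GLN1-4 BnaC02G0075000ZS was higher in bnagrp3 at 4 h (0.56 (SE 0.14, adjusted p = 0.00816); 0.0785 when only the compared groups were fitted), and its groups did not overlap in that treatment.

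**Figure D4:**
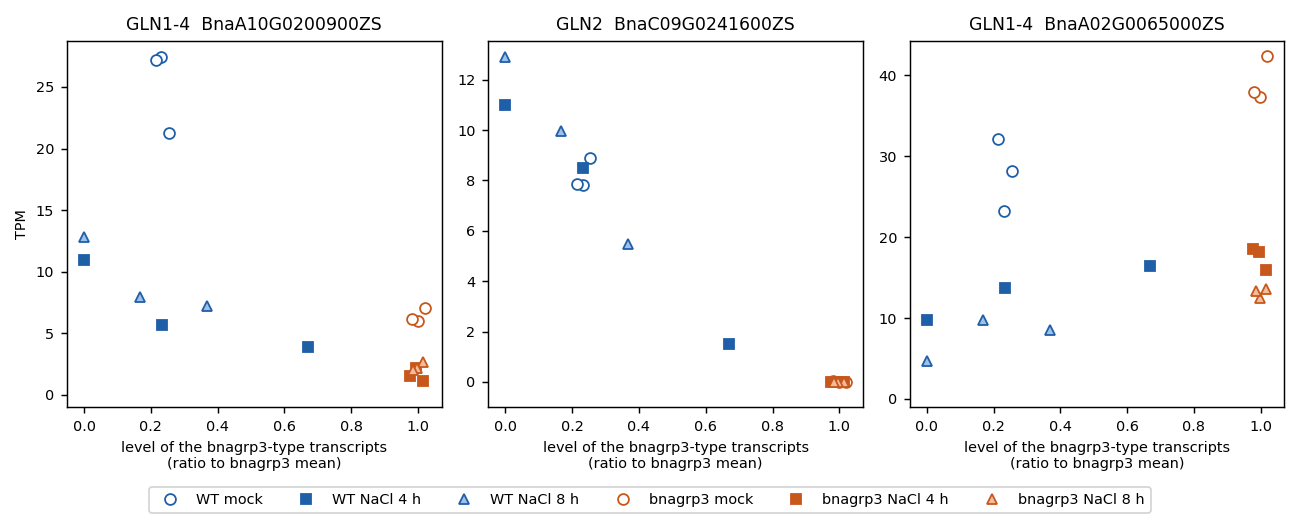
TPM (vertical axes) of 3 genes against the median level of 326 bnagrp3-type transcripts in the same library, as a ratio to the bnagrp3 mean (horizontal axes); 1 point per library, blue WT and orange bnagrp3, with shapes for the treatments. Among salt-treated WT libraries BnaA10G0200900ZS and BnaC09G0241600ZS are highest at ratio 0, and BnaA02G0065000ZS at 4 h is lowest there.

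GLN1-2 BnaA02G0159900ZS was lower in bnagrp3 in mock and at 4 h (-0.44 (SE 0.12, adjusted p = 0.0189) and -0.50 (SE 0.12, adjusted p = 0.00864)), with no overlap between the genotypes in either treatment. At 8 h its adjusted p was 0.430. The mock call was lost without any 1 of 4 libraries (adjusted p = 0.0528 to 0.0779). GLN2 BnaC07G0129700ZS was lower in mock and at 8 h (-0.32 (SE 0.07, adjusted p = 0.00562) and -0.24 (SE 0.07, adjusted p = 0.0245)), the latter lost without any 1 of 4 libraries, WT replicate 3 among them (adjusted p = 0.0526 to 0.0825). GLN2 BnaA04G0089200ZS was not called at 8 h (-0.27, adjusted p = 0.0600), but without WT replicate 3 it was called lower in bnagrp3 (-0.39, adjusted p = 0.00778). Higher in bnagrp3 mock were GLN1-1 BnaA04G0096800ZS (0.54 (SE 0.18, adjusted p = 0.0446)) and the Lotus match BnaC04G0386000ZS (0.44 (SE 0.14, adjusted p = 0.0365)). Their WT and mutant mock libraries did not overlap, but both calls were lost when single libraries were left out, at adjusted p up to 0.154 and 0.142. With the replicate number as a block BnaA04G0096800ZS was not called either (0.0634).

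At 4 h the genotype calls of the GLN1-1 genes and the Lotus match changed with WT replicate 2. With it BnaC04G0378100ZS, BnaA04G0096800ZS and the Lotus match BnaC04G0386000ZS were not called between the genotypes (adjusted p = 0.0916, 0.516 and 0.0767). Without it all 3 were called higher in bnagrp3, by 0.53, 0.44 and 0.51 (adjusted p = 0.00094, 0.0243 and 0.0106), which made 4 members higher in place of 1. The Lotus match was also called without bnagrp3 replicate 1 at 4 h (0.46, adjusted p = 0.0485). GLN1-3 BnaA03G0351300ZS, listed at 0 in bnagrp3 at 4 h, was called lower there (adjusted p = 0.0166), and without the same library it was not (0.0577).

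No member was called for a difference of the salt response between the genotypes, where 2.46% of all tested genes were called at 4 h and 1.38% at 8 h in either direction. At an unadjusted p under 0.05, limma gave 1 member higher and 1 lower at 4 h and 1 higher and 2 lower at 8 h. The share of all tested genes at that unadjusted cut was not counted, so no result is read from these counts. The smallest adjusted p was 0.0927 for BnaA03G0351300ZS and 0.101 for BnaC07G0129700ZS at 4 h, and 0.12 for BnaC08G0109700ZS at 8 h. The last gene lay lower in all 3 bnagrp3 than in all 3 WT libraries in mock and higher in all 3 at 8 h, with an interaction of 0.37 (SE 0.11). These p-values do not show that the responses were alike.

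Genes of the steps around glutamine synthetase were taken from lists of Swiss-Prot products. Counts are of tested list members, against the same percentages of all genes as above, and the median over all genes is 0.05 in WT at 4 h. Nitrate and nitrite reductases, which supply ammonium, fell in 9 of 10 and rose in 0 in WT at 4 h (median -1.56), and in 8 of 10 in bnagrp3 at 4 h (median -1.31). Nitrite reductase NIR1 BnaA09G0107500ZS went from 124 ± 16.3 to 18.2 ± 1.66 TPM in WT at 4 h (-2.70, SE 0.15, adjusted p = 3.07e-09). GOGAT genes, the next step, were higher in 5 and lower in 1 of 8 in WT at 4 h (median 0.49) and higher in 2 and lower in 0 in bnagrp3 (median 0.21). Their summed level did not rise in WT, at 363.4 to 373.5 TPM in mock, 336.5 to 357.4 at 4 h and 248.0 to 250.0 at 8 h. In bnagrp3 the sum was 287.3 to 314.6, 299.8 to 334.0 and 264.2 to 295.7 TPM. Ferredoxin-dependent GLU1 BnaA10G0286200ZS, the photorespiratory form in Arabidopsis, fell from 129 ± 3.64 to 94.6 ± 17.4 TPM in WT at 4 h (-0.46, adjusted p = 0.00321), while GLU2 BnaA04G0263400ZS rose from 5.07 ± 0.92 to 14.9 ± 3.79 TPM (1.37, adjusted p = 4.01e-06). At 8 h GLU1 BnaA10G0286200ZS was at 55.2 ± 5.56 TPM in WT and 103 ± 7.24 TPM in bnagrp3, and its 8 h response differed between the genotypes (0.71, SE 0.16, adjusted p = 0.0377). Of the 8 GOGAT genes 2 were called for this difference, beside 1.38% of all tested genes.

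Glutamate dehydrogenase genes, whose enzymes release or bind ammonium, were higher in 7 of 14 and lower in 0 in WT at 4 h (median 0.47), and higher in 9 and lower in 0 in bnagrp3 (median 0.66). GDH2 BnaA03G0027700ZS went from 1.39 ± 0.27 to 6.08 ± 0.71 TPM in WT at 4 h (1.57, adjusted p = 2.36e-07). GDH1 BnaC09G0483800ZS went from 20.4 ± 3.10 to 59.2 ± 2.65 TPM in bnagrp3 at 4 h (1.50, adjusted p = 6.57e-06), and was at 23.4 ± 2.69 TPM in WT at 4 h. Its 4 h response differed between the genotypes (1.29, SE 0.26, adjusted p = 0.0188), as 1 of the 14 tested, beside 2.46% of all tested genes. Asparagine synthetases, which use glutamine, were split, with 4 higher and 3 lower of 10 in WT at 4 h (median 0.32). Of these BnaA06G0177300ZS was at 0.19 ± 0.12 TPM in WT mock and 22.7 ± 12.0 TPM at 4 h (4.15, adjusted p = 1.77e-05), and ASN2 BnaA06G0299700ZS fell from 39.5 ± 2.90 to 5.58 ± 1.27 TPM (-2.64, adjusted p = 3.06e-08).

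Genes making proline from glutamate were higher in 12 of 18 and lower in 0 in both genotypes at 4 h (medians 0.93 in WT and 0.87 in bnagrp3). P5CSA BnaA05G0063500ZS went from 12.4 ± 1.14 to 580.3 ± 102 TPM in WT at 4 h (5.43, adjusted p = 1.47e-13). Photorespiratory genes, which lead to the release of ammonium in mitochondria, were lower in 22 and higher in 5 of 38 in WT at 4 h (median -0.32), and lower in 16 and higher in 8 in bnagrp3 (median -0.24). Within them the aminomethyltransferase genes moved apart, BnaC08G0212500ZS from 123 ± 8.84 to 326 ± 18.5 TPM and BnaA09G0651400ZS from 144 ± 9.36 to 57.2 ± 6.21 TPM in WT at 4 h (1.40 and -1.32, adjusted p = 1.83e-08 and 2.64e-07). Carbamoyl phosphate synthase, a user of glutamine, and the PII regulator were lower in 6 of 9 and higher in 0 in WT and in bnagrp3 at 4 h (medians -0.59 and -1.26). The synthase small chain CARA BnaA07G0310600ZS fell from 23.8 ± 7.14 to 11.3 ± 1.39 TPM in WT at 4 h (-0.97, adjusted p = 0.000306).

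Other lists were counted in WT at 4 h, where 26% of all tested genes were higher and 20.5% lower (29% and 17.3% at 8 h). The counts of ammonium transporters were near these shares. Ammonium transporters were higher in 3 and lower in 2 of 11 (median 0.47), glutamate decarboxylases higher in 1 and lower in 0 of 7 (median 0.07), and asparaginases higher in 1 and lower in 0 of 5 (median -0.14). Among the transporters AMT1-1 BnaA05G0145700ZS, which carries ammonium into cells, fell from 7.40 ± 1.67 to 2.92 ± 0.89 TPM (-1.11, adjusted p = 6.39e-05) and AMT2 BnaC04G0083600ZS rose from 2.76 ± 0.62 to 5.03 ± 1.05 TPM (0.68, adjusted p = 0.0139). The asparaginase that rose was BnaC09G0570100ZS, from 7.58 ± 0.12 to 10.7 ± 0.92 TPM (0.45, adjusted p = 0.00174). Senescence and chlorophyll breakdown genes were higher in 15 and lower in 4 of 27 (median 0.78), with NAC029 BnaA07G0309700ZS, a senescence regulator in Arabidopsis, going from 0.72 ± 0.23 to 29.3 ± 6.90 TPM (4.13, adjusted p = 2.42e-09), and pheophytinase PPH BnaA01G0022200ZS, an enzyme of chlorophyll breakdown, from 35.2 ± 4.47 to 19.7 ± 3.48 TPM (-0.81, adjusted p = 0.000379). Circadian clock genes, listed since mock is not matched in time of day, were higher in 8 and lower in 10 of 33 in WT at 4 h and higher in 14 and lower in 9 at 8 h. LUX BnaA01G0230700ZS, an evening gene in Arabidopsis, went from 10.2 ± 5.19 to 40.1 ± 9.67 TPM in WT at 4 h (1.96, adjusted p = 0.000302), and LHY BnaC05G0010100ZS, a morning gene, from 9.30 ± 0.52 to 3.68 ± 0.95 TPM (-1.16, adjusted p = 0.000224). The part of the time of day in the salt comparisons was not tested.

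**Figure D5:**
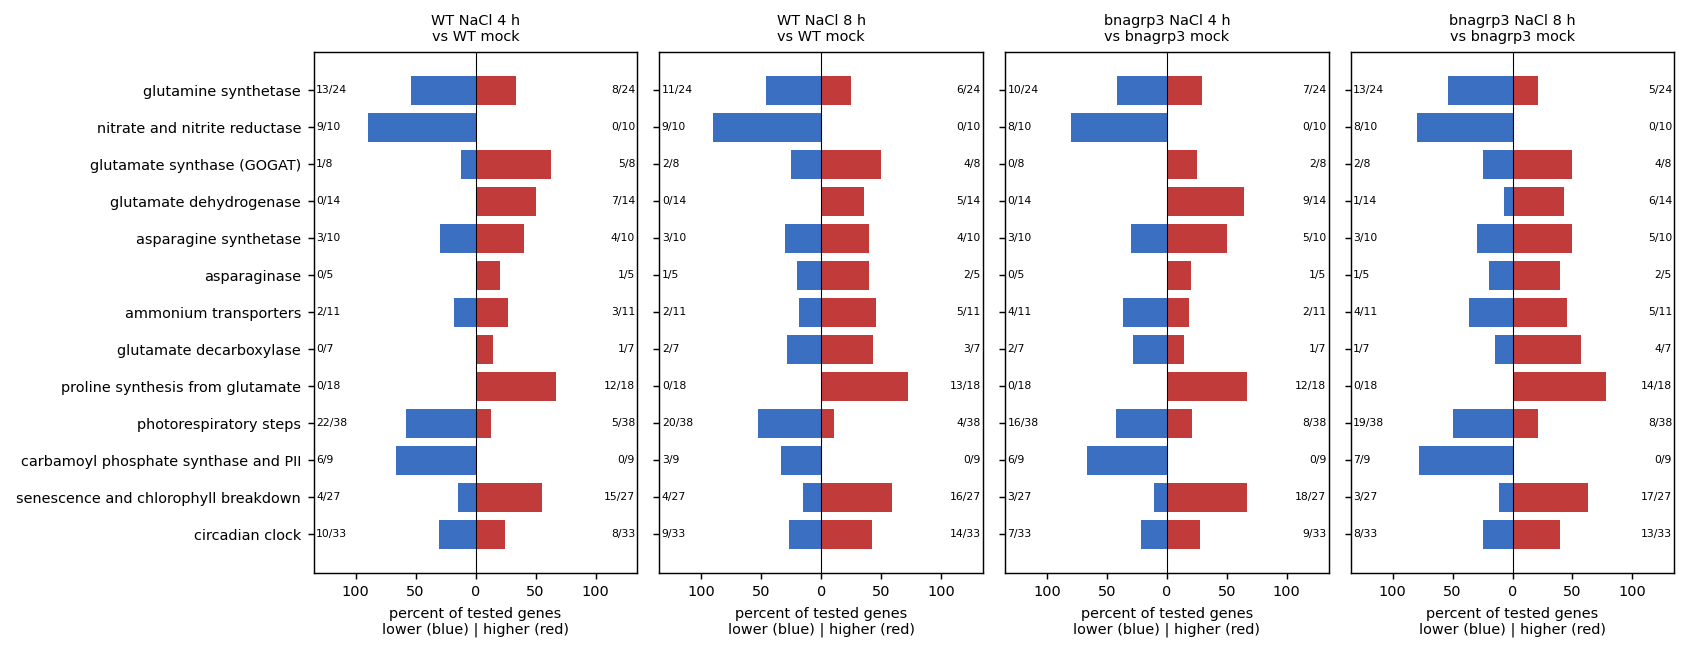
Percentage of tested genes called lower (blue, left) and higher (red, right) at an adjusted p under 0.05 in the 4 salt comparisons, for glutamine synthetase and 12 lists, with called/tested counts beside the bars. Nitrate and nitrite reductases are lower in 8 or 9 of 10 and proline synthesis genes higher in 12 to 14 of 18 in every comparison. The shares of all tested genes are not drawn.

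Markers of other cells were read beside these values. Leaf mesophyll markers (Rubisco small subunits and chlorophyll-binding proteins) were lower in 56 and higher in 2 of 69 tested in WT at 4 h, and their sum over 78 genes went from 142100.0 to 157000.0 TPM in the WT mock libraries to 79180.0 to 85010.0 at 4 h and 63360.0 to 70080.0 at 8 h. Of the 78, 7 were at 0 in WT mock and 9 at both salt times. In bnagrp3 the sums were 160600.0 to 166000.0 TPM in mock, 83370.0 to 86400.0 at 4 h and 71810.0 to 80350.0 at 8 h. Of all tested genes 26% were higher and 20.5% lower in WT at 4 h, and 28.7% and 23.5% in bnagrp3 at 4 h. Beside these shares, phloem and vascular markers were higher in 4 and lower in 1 of 30 tested in WT at 4 h, and higher in 12 and lower in 1 in bnagrp3. Their sum over 36 genes was 458.5 to 500.9 TPM in WT mock and 554 to 572 TPM at 4 h, and in bnagrp3 434 to 488.5 and 559 to 660.1 TPM. Root markers were at or near 0, with no gene of 30 reaching the filter and a sum of 0.06 to 0.74 TPM over the 18 libraries. The part of mesophyll and vascular transcripts in the fall of GLN2 and the rise of GLN1-1 and of 3 GLN1-3 genes was not tested.

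Genes of the most similar profile were looked up for 1 plastid and 2 cytosolic members. Likeness was the root mean square difference of log2(TPM + 1) profiles over the 18 libraries, each centred on its own mean, searched over 13029 genes of at least 10 TPM with a Swiss-Prot match. The non-member nearest to GLN2 BnaC04G0369400ZS was PRXQ BnaC03G0587900ZS, a chloroplast peroxiredoxin, at 0.0758, before the probable carboxyarabinitol phosphatase gene BnaC02G0112400ZS at 0.103 and the chloroplast copper transporter PAA2 BnaC09G0452700ZS at 0.116. Its nearest fellow member, GLN2 BnaA04G0089100ZS, was at 0.166. For GLN1-1 BnaC04G0378100ZS the nearest were the bark storage protein match BnaC01G0178400ZS at 0.194, annexin ANN4 BnaC03G0220200ZS at 0.198 and expansin EXPA10 BnaC05G0219000ZS at 0.214, all farther than the Lotus match BnaC04G0386000ZS at 0.131. No close profile was found for BnaA03G0351300ZS, whose nearest gene, TIM14-1 BnaA03G0171200ZS, was at 1.22.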

How the data were processed

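RNA-seq of 18 libraries was analysed. Values are TPM per gene as deposited by the authors. fastp, HISAT2 and featureCounts are named in the submitters' processing notes, without versions and with genome build not given in the sources used here. The members, lists, tests and names were chosen with earlier results of these data known. All members passing the filter are named, and of each list the called genes of a group mean of at least 5 TPM with the largest rise and fall in WT at 4 h, with GDH1 from bnagrp3 at 4 h.

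Genes at 1 TPM or more in at least 3 libraries (57923) were fitted on log2(TPM + 1) with limma 3.58.1 in R 4.3.3, with a trend, 1 mean per group and no covariate. P-values are two-sided and adjusted over all these genes, over 11 comparisons each on its own. The procedure was tested on simulated data. Lists were matched at the start of words in Swiss-Prot descriptions. The bnagrp3-type set was chosen after seeing the values. Gene identifiers were used as deposited. No gene sequence was used here. Python 3.11.15 with matplotlib 3.10.9 made the figures.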

Additional observations from a re-analysis of the deposited data

How the results depend on the processing

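The alternatives tried were median-of-ratios rescaling, a pseudocount of 0.1, fits limited to the compared groups, the replicate number as a block, testing genes without a filter or from 5 TPM, leaving out each library, and, chosen after seeing the data, leaving out WT replicate 2 at 4 h together with WT replicate 3 at 8 h. No direction of a called member reversed under these. The 24 tested members in 11 comparisons gave 264 fold changes, many of them not called. Among these no call was lost or gained with the pseudocount, and 3 calls were lost without filter. With rescaling 1 call was lost and 8 were gained. With only the groups compared 24 were lost and 5 gained, and without the 2 libraries 8 were lost and 7 gained. Counts of members called moved by over 1.5 times as follows, and the cause was not tested except that a filter of 5 TPM tests fewer genes. With that filter 3 members were higher in bnagrp3 at 8 h against mock, in place of 5, and 1 was higher in WT at 8 h against 4 h, in place of 2. With only the groups compared, the WT change from 4 h to 8 h had 0 higher and 3 lower in place of 2 and 11, and 0 were higher in bnagrp3 in mock and 0 at 4 h in place of 2 and 1. Without the 2 libraries the WT change from 4 h to 8 h had 1 higher and 7 lower, and 4 were higher in bnagrp3 at 4 h. Without filter 1 was higher in bnagrp3 mock.

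Labels do not say that equal replicate numbers belong together. Of 45 pairs of libraries with the same number none had deviations correlated above 0.1 (median 0.0052, from -0.43 to 0.066). Of 90 pairs with different numbers 2 did (median -0.0049, from -0.42 to 0.46). Such correlations cannot show that the samples were unpaired. With the replicate block 1 member was higher in bnagrp3 mock in place of 2, and no other call of a member changed.

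With single libraries left out, the ranges of members higher and lower were 8 to 8 and 9 to 13 in WT at 4 h, 5 to 6 and 11 to 12 in WT at 8 h, 7 to 7 and 9 to 11 in bnagrp3 at 4 h, and 5 to 5 and 12 to 13 in bnagrp3 at 8 h. Against 4 h they were 1 to 2 and 8 to 11 in WT at 8 h and 1 to 2 and 8 to 9 in bnagrp3. Between genotypes they were 0 to 2 and 3 to 4 in mock, 1 to 4 and 3 to 4 at 4 h, and 0 to 1 and 2 to 3 at 8 h, and the difference of the salt responses had 0 throughout. Depth is unknown, so values near 0 cannot be given a floor.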
